A study of Arabidopsis thaliana with 8 samples.

Results

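The comparison described here sets longitudinal zone 3 of the Arabidopsis thaliana root against longitudinal zone 1. The members are the 4 arrays labelled zone 3 or zone 1, 2 of each, out of 8 arrays over 4 zones in the whole series. Each array measured RNA from a root section of seedlings of the ecotype Columbia, kept for 5 days on MS (Murashige and Skoog) medium and then for 3 hours on a medium deficient in sulfur before dissection. Zone 3 and zone 1 share this treatment, and no sulfur-sufficient sample enters any comparison, so the values describe position along a root at low sulfur. The labels call the zones developmental stages but leave it unstated which end of the root zone 1 or zone 3 is nearer to, and whether replicate samples of one zone were taken from different plants. The p-values therefore cover only the spread among these samples, which can be technical. In whole root sections, fewer cells of a type and less RNA per cell cannot be told apart.

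A root grows from a meristem near its tip, where cells divide and make ribosomes at a high rate. Cells that leave the meristem stop dividing, elongate as their walls are loosened by expansins and xyloglucan endotransglucosylases, and then differentiate into root hairs, conducting tissue and barrier layers. Class III peroxidases, which are secreted enzymes that cross-link or loosen wall polymers, form one of the large gene families of the mature root surface.

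Zone 3 and zone 1 differed across a large share of the genes measured. Of 13647 probe sets tested, 5192 (38.0%) were called, at an adjusted p under 0.05 by limma and at least a 2-fold difference. Of these, 2461 were higher in zone 3, which is 18.0% of the probe sets tested, and 2731 were lower in zone 3, which is 20.0%. An unadjusted p under 0.05 was reached by 6650. At 1 probe set per gene, 1303 of 7497 named genes were higher and 1550 were lower. All log2 differences given here are zone 3 minus zone 1, and signals are on a linear scale.

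The differences were large in both directions, with a longer tail among the genes that were higher in zone 3. The median absolute log2 difference was 2.01 among probe sets that were higher and 1.87 among those that were lower. A difference of at least 16-fold was seen for 375 of the 2461 higher probe sets and for 125 of the 2731 lower ones. At least 32-fold was reached by 175 and 34. Some of the called differences rest on dim signals in 1 zone. Of the 2461 higher probe sets, 469 lay under the 40th percentile of their array on both zone 1 arrays. On both zone 3 arrays these 469 lay at or above it. Of the 2731 lower ones, 341 showed the opposite. How many of these belong to the tail was not counted. With signals under that percentile raised to it, 5417 probe sets (39.7%) were called in all, and 2410 of the 2461 and 2665 of the 2731 kept their call. Where this made the difference of a named gene or a list median clearly smaller, the value is also given as dim-raised.

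**Figure D1:**
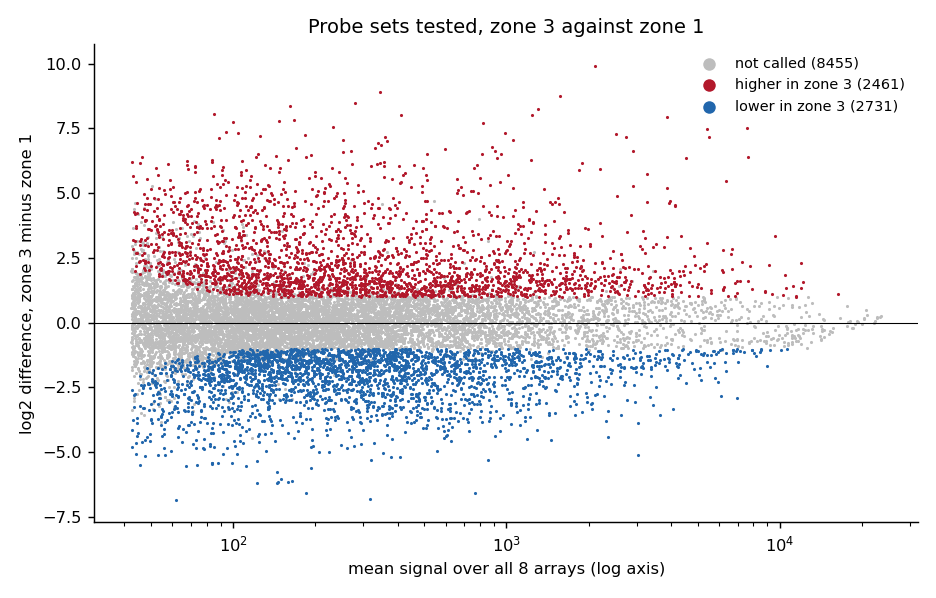
Each point is 1 of the 13647 probe sets tested. The horizontal axis is its mean signal over all 8 arrays on a log scale, and the vertical axis its log2 difference, zone 3 minus zone 1. The 2461 probe sets higher in zone 3 reach farther from 0 than the 2731 that are lower.

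The arrays of the 2 zones did not overlap in 9514 probe sets (69.7%), and the 4 arrays were not equally far apart. Among called probe sets, they did not overlap in 2460 of the 2461 higher ones and in all 2731 lower ones. A lack of overlap therefore adds little to a call. Across the probe sets tested, which are not independent, r with the zone 1 arrays was 0.559 and 0.56 for zone 3 replicate 1, and 0.664 and 0.668 for zone 3 replicate 2. The zone 3 arrays correlated with each other at 0.899 and the zone 1 arrays at 0.896. Zone 3 replicate 2 lay nearer to the zone 1 mean than replicate 1 in 62.3% of the higher probe sets and in 76.9% of the lower ones. Without zone 3 replicate 1, 3112 probe sets were called, and 3004 of the original calls were kept. For the GAPDH control transcript, the ratio of the 3' to the 5' signal was 14.8 and 26.0 on the zone 3 arrays, against 64.3 and 13.2 on the zone 1 arrays. For actin it was 101 and 44.8, against 269 and 95.1, and for ubiquitin 10.2 and 13.7, against 11.6 and 6.88. The zones overlapped in each. The 3' signal far exceeded the 5' signal on every array, and most on zone 1 replicate 1 for GAPDH and actin. What this did to the calls was not tested. Median signals were 59.9 and 71.5 on the zone 3 arrays and 62.6 and 57.8 on the zone 1 arrays.

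The genes with the strongest rise in zone 3 included 5 class III peroxidases and a pair of genes of the acid phosphatase family. AT1G04040, of that phosphatase family, had signals of 9730 and 7342 on the zone 3 arrays, against 38.2 and 30.4 on the zone 1 arrays (log2 difference 7.95, SE 0.48, limma adjusted p = 2.0e-05). Its relative AT5G44020 had 4154 and 3600 in zone 3, against 6.06 and 2.63 in zone 1 (log2 difference 9.92, SE 0.52, adjusted p = 9.9e-06, dim-raised 7.00). Both were near the dim end of the zone 1 arrays and among the bright signals of the zone 3 arrays. Only these 2 of the 6 tested members of the family rose and 1 fell, beside 18.0% higher and 20.0% lower over all probe sets tested. AT4G25150 was lower, with 37.0 and 32.9 in zone 3, against 118 and 64.2 in zone 1 (log2 difference -1.32, adjusted p = 0.044). This call was lost under 12 of the 18 alternatives, with dim signals raised (-1.06) and with any single array other than zone 1 replicate 2 left out among them.

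The other genes of the 12 that rose most were of several kinds. The peroxidase gene AT4G30170 had signals of 12652 and 8832 on the zone 3 arrays, against 118 and 44.9 on the zone 1 arrays (log2 difference 7.18, SE 0.53). LCR68, which encodes a small cysteine-rich protein of the defensin-like class, had 3726 and 2066 in zone 3, against 41.7 and 52.8 in zone 1 (log2 difference 5.89, SE 0.46). AT1G67330, which carries no symbol, had 6929 and 4566 in zone 3, against 62.9 and 51.6 in zone 1 (log2 difference 6.63). For all 12, no overlap between zone 3 and zone 1 arrays was a condition of being picked. AT1G18980, AT1G09750 and AT3G04010, also without symbols, had log2 differences of 6.79, 5.59 and 7.30, with dim-raised values of 5.65, 5.53 and 5.51.

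The strongest falls in zone 3 were smaller in fold and held genes of several kinds. sks16, whose product resembles the multicopper oxidase-like wall protein SKU5, had signals of 25.2 and 127 on the zone 3 arrays, against 1456 and 3407 on the zone 1 arrays (log2 difference -5.30, SE 0.70, adjusted p = 0.00048, dim-raised -5.04). The glutathione transferase gene ATGSTF13 had 23.5 and 60.6 in zone 3, against 1116 and 1230 in zone 1 (log2 difference -4.96, SE 0.43, adjusted p = 9.6e-05, dim-raised -4.65). ATLP-1, a thaumatin-like gene, had 65.1 and 171 in zone 3, against 2242 and 1671 in zone 1 (log2 difference -4.20, SE 0.45). In all 3, zone 3 replicate 2 was the higher of the zone 3 arrays, and no overlap with zone 1 was a condition of being picked. AT5G48360, AT4G15830, AT3G03130, AT3G55510, AT4G04940 and AT4G28450 had log2 differences from -4.59 to -4.06.

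AT1G52070 was among the 12 that fell most, but its arrays were far apart within each zone. It had signals of 41.5 and 573 on the zone 3 arrays, against 1388 and 7572 on the zone 1 arrays (log2 difference -4.39, SE 1.05, adjusted p = 0.0083). Its call was lost without zone 3 replicate 1 (log2 difference -2.50), without zone 1 replicate 2 (-3.17) and with a robust prior variance. Its neighbours on chromosome 1, AT1G52050 and AT1G52060, were also lower in zone 3, with log2 differences of -3.05 and -3.40 (adjusted p = 0.014 and 0.021).

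**Figure D2:**
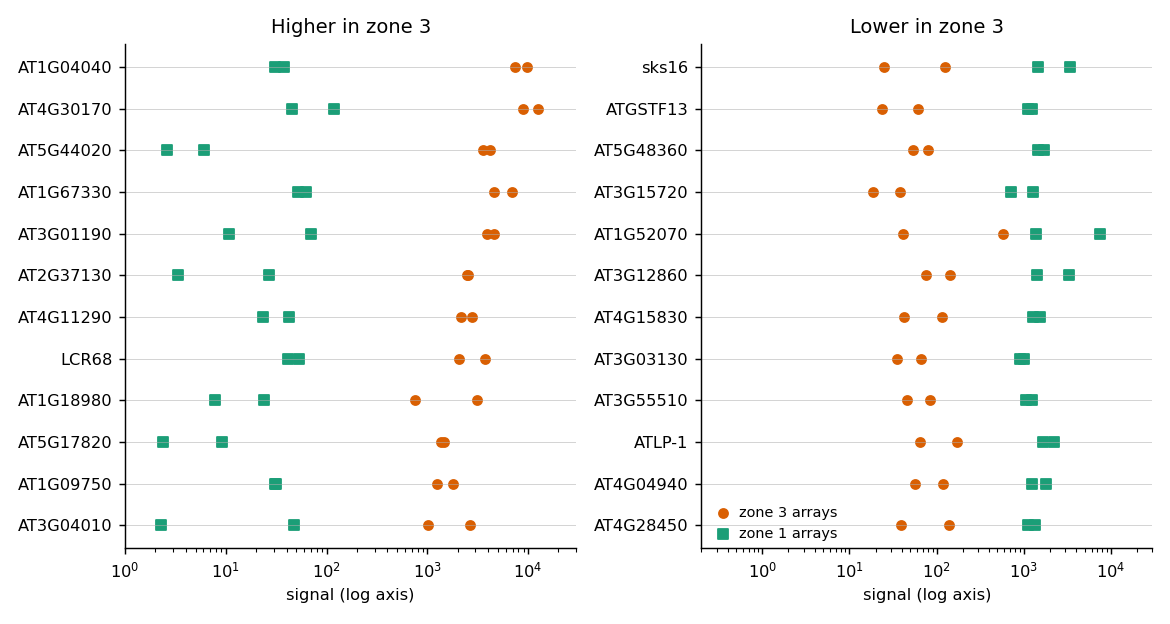
Signals on each array for the 12 genes with the largest dim-raised differences in each direction, on a log axis; orange circles are the 2 zone 3 arrays and green squares the 2 zone 1 arrays. No overlap between zone 3 and zone 1 arrays was a condition for picking the 24 genes. AT1G52070 has the widest spread on the zone 3 arrays, at 41.5 and 573.

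Genes of cell division were lower in zone 3. Of 10 tested, 9 fell and none rose, with a median log2 difference of -3.00 (dim-raised -2.45), beside 20.0% lower and a median of -0.01 over all probe sets tested. BUBR1, a gene of the spindle checkpoint, had signals of 3.20 and 8.29 on the zone 3 arrays, against 269 and 181 on the zone 1 arrays (log2 difference -5.42, SE 0.77, adjusted p = 0.00066, dim-raised -2.41). 3xHMG-box1 and 3xHMG-box2, chromatin proteins that bind mitotic chromosomes, had log2 differences of -3.88 (SE 0.40, dim-raised -3.26) and -3.71 (SE 0.46). All 3 were below the zone 1 arrays on both zone 3 arrays, as were all 2731 probe sets called lower.

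The Aurora kinase genes, whose products phosphorylate histones and spindle proteins in mitosis, fell together. AUR2 had signals of 74.6 and 104 on the zone 3 arrays, against 1383 and 581 on the zone 1 arrays (log2 difference -3.35, SE 0.44, adjusted p = 0.00048). AUR1 had 102 and 267 in zone 3, against 1182 and 675 in zone 1 (log2 difference -2.43, SE 0.47). AUR3 differed by -3.24 (dim-raised -1.93), with 5.86 and 96.3 in zone 3, against 256 and 198 in zone 1. KINESIN-12B, a motor of the phragmoplast that builds the new cell wall, and the checkpoint genes BUB3.1 and BUB3.2 had log2 differences of -2.76 (dim-raised -2.46), -2.53 and -2.45 (dim-raised -1.96). The exception was ATMAP65-6, a microtubule-associated protein gene, with 220 and 130 in zone 3, against 111 and 82.6 in zone 1 (log2 difference 0.82, adjusted p = 0.25).

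The meristem regulator BBM, an AP2-type transcription factor, had signals of 1.60 and 10.8 on the zone 3 arrays, against 601 and 149 on the zone 1 arrays (log2 difference -6.17, SE 1.01, adjusted p = 0.0013). Its zone 3 signals are at the floor of the arrays, and the dim-raised difference was -2.85. It was the sole one of 7 listed meristem regulators with a named probe set. Of 10 listed genes of DNA replication 4 had a named probe set, and all 4 fell, with a median of -1.98 (dim-raised -1.92). Over all probe sets tested, 20.0% were lower and the median was -0.01. The log2 differences were -2.94 (dim-raised -2.00) for POLD3, a subunit of DNA polymerase delta, and -2.13 for POLA3 of the polymerase alpha complex. They were -1.83 for the MCM helicase gene PRL and -1.33 for ICU2, the catalytic subunit of polymerase alpha. The ICU2 call, at an adjusted p of 0.049, was lost under 10 of the 18 alternatives.

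Most histone genes did not pass. Of 9 tested, 3 H2B genes fell, 6 did not pass and the median was -0.83, beside 20.0% lower over all probe sets tested. HTB1 had signals of 988 and 1214 on the zone 3 arrays, against 6774 and 2548 on the zone 1 arrays (log2 difference -1.92, SE 0.42, adjusted p = 0.0051). AT2G37470 and HTB2 had -1.44 and -1.39. Zone 1 replicate 1 carried the higher zone 1 value in each of these 3. The number that fell was 1 without zone 1 replicate 1, and also 1 without zone 3 replicate 1, where 15.8% and 12.1% of all probe sets tested were lower. It was 7 when zone 1 replicate 2 was left out.

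All 11 tested genes of rRNA synthesis and ribosome assembly fell in zone 3, with a median of -3.00. Over all probe sets tested, 20.0% were lower and the median was -0.01. With single arrays left out, the median of the list ran from -3.27 to -2.42. NRPA1 and NRPA2 encode the large subunits of RNA polymerase I, which transcribes rRNA. NRPA2 had signals of 119 and 239 on the zone 3 arrays, against 1892 and 1227 on the zone 1 arrays (log2 difference -3.17, SE 0.46, adjusted p = 0.00073), and NRPA1 differed by -3.00. AT3G12860, of the family of nucleolar proteins that carry snoRNA-guided rRNA methylation, had 75.8 and 144 in zone 3, against 3349 and 1433 in zone 1 (log2 difference -4.39, SE 0.52). No zone 3 array reached the lower zone 1 array for any of these, as in all 2731 probe sets called lower.

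The rRNA processing factors followed the same order of zones. YAO, a nucleolar WD-repeat protein gene, had signals of 137 and 192 on the zone 3 arrays, against 1989 and 2020 on the zone 1 arrays (log2 difference -3.63, SE 0.39). IMP4, a component of the U3 particle that cleaves precursor rRNA, had 165 and 265 in zone 3, against 1019 and 1028 in zone 1 (log2 difference -2.29, SE 0.34). RRP41, a core subunit of the RNA exosome, showed the smallest fall of the 11, with 416 and 705 in zone 3, against 2577 and 1522 in zone 1 (log2 difference -1.87, SE 0.36).

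Cytosolic ribosomal protein genes moved in the same direction by less. Of 110 genes with a probe set 106 were tested, 48 fell, none rose and the median was -0.93 (dim-raised -0.89). The falls differed by brightness. Among the 53 genes with the lower mean signals 39 fell, with a median of -1.36, and among the 53 brighter ones 9 fell, with a median of -0.52. Over all probe sets in the same signal ranges, 21.0% and 9.29% were lower and the medians were -0.03 and -0.19. AT1G80750 had signals of 228 and 352 on the zone 3 arrays, against 3385 and 2972 on the zone 1 arrays (log2 difference -3.48, SE 0.40, adjusted p = 0.00026). AT5G39850, AT2G32220 and AT5G59240 had log2 differences of -3.36, -3.16 and -3.13. The one ribosomal protein gene with a difference above 1 was AT3G28500, which had 75.0 and 121 in zone 3, against 36.4 and 45.1 in zone 1 (log2 difference 1.23, adjusted p = 0.059). Without zone 3 replicate 1 the median of the list was -0.70 and fewer were called, as over all probe sets tested.

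**Figure D3:**
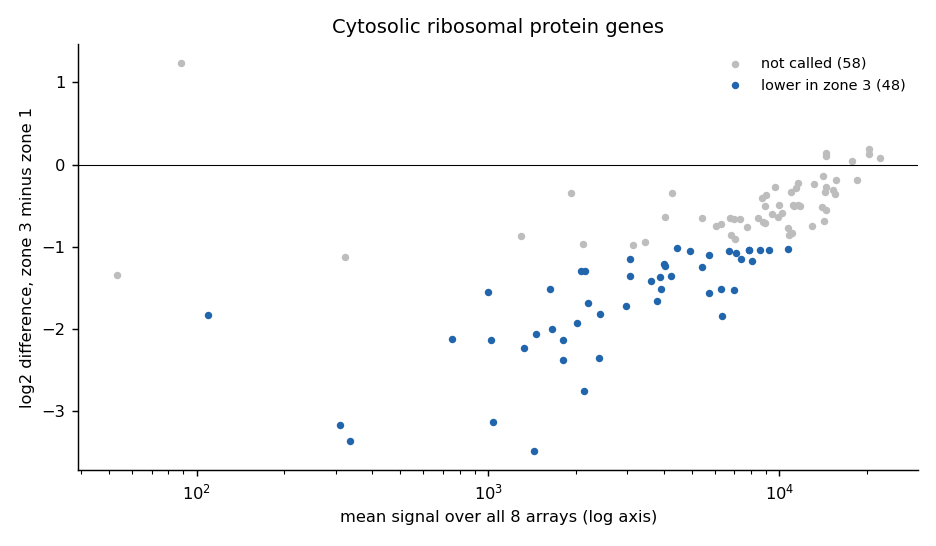
Each point is 1 of the 106 cytosolic ribosomal protein genes tested, with the mean signal over all 8 arrays on a log axis and the log2 difference, zone 3 minus zone 1, on the vertical axis. The 48 genes that fell lie mostly at lower signals, and the brightest genes lie near 0.

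Of the families listed, class III peroxidase genes had the largest number that rose. Of 55 with a probe set, 31 passed the filter on low signals. Of the 31, 17 rose, 2 fell and 12 did not pass, with a median of 3.42 (dim-raised 1.80), beside 18.0% higher over all probe sets tested. The filter used the mean over all 8 arrays, so a member bright in a single zone could pass by that zone alone. AT2G37130 had signals of 2532 and 2450 on the zone 3 arrays, against 26.8 and 3.36 on the zone 1 arrays (log2 difference 8.04, SE 0.77, adjusted p = 0.00015, dim-raised 6.36). AT3G01190 had 4544 and 3943 in zone 3, against 70.0 and 10.7 in zone 1 (log2 difference 7.27, SE 0.88, dim-raised 6.60).

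AT5G17820 and AT4G11290, the other peroxidase genes among the 12 that rose most, had log2 differences of 8.23 (dim-raised 5.55) and 6.28 (dim-raised 6.02). AT5G66390 had signals of 674 and 55.8 on the zone 3 arrays, against 1.35 and 1.35 on the zone 1 arrays (log2 difference 7.16, adjusted p = 0.012), and its dim-raised difference of 2.68 did not pass. PRXR1, among the bright members in both zones, had 5120 and 5296 in zone 3, against 2906 and 4919 in zone 1 (log2 difference 0.46, adjusted p = 0.27). The 2 members that fell were AT5G24070, with 27.1 and 81.1 in zone 3, against 386 and 333 in zone 1 (log2 difference -2.94, dim-raised -2.73), and AT2G43480, with -2.01. Zone 3 replicate 1 was above replicate 2 in most of the strong rises. Without it the peroxidase median was 2.41 and fewer were called, as over all probe sets tested. Without zone 1 replicate 2 the median was 3.28, also with fewer called.

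Among genes of wall loosening, expansin genes held members of both directions. Of 19 with a probe set 12 were tested, 6 rose, 2 fell and the median was 1.62 (dim-raised 1.23). Over all probe sets tested, 18.0% were higher and 20.0% lower, so the 2 falls lay near the background. EXPA8 had signals of 88.8 and 87.2 on the zone 3 arrays, against 1.75 and 3.44 on the zone 1 arrays (log2 difference 5.17, SE 0.97, dim-raised 1.54). EXPA7, which is expressed in root hair cells, had 145 and 118 in zone 3, against 17.4 and 4.89 in zone 1 (log2 difference 3.82, dim-raised 2.11). EXPA18, of the same cells, had 215 and 101 in zone 3, against 26.9 and 3.61 in zone 1 (log2 difference 3.90, dim-raised 2.28). All 3 were dim on both zone 1 arrays and higher on both zone 3 arrays. The EXPA18 call was lost without zone 3 replicate 1 (3.35) and without zone 1 replicate 2 (2.45). No other one of 10 listed root hair genes had a named probe set.

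The expansins that fell were EXPA15 and EXPA4. EXPA15 had signals of 171 and 85.1 on the zone 3 arrays, against 337 and 1156 on the zone 1 arrays (log2 difference -2.37, SE 0.58, adjusted p = 0.0093). EXPA4 had 3.63 and 52.9 in zone 3, against 101 and 354 in zone 1 (log2 difference -3.77, dim-raised -2.11), and its call was lost without zone 3 replicate 1 (-1.84) and without zone 1 replicate 2 (-2.87). The expansin counts depended on single arrays: 2 rose and 1 fell without zone 3 replicate 1. Leaving out zone 3 replicate 2 gave 6 that rose and 1 that fell, and leaving out zone 1 replicate 2 gave 4 that rose and none that fell.

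Xyloglucan endotransglucosylases, which cut and rejoin the xyloglucan chains between cellulose fibres, were higher in zone 3. Of 10 with a probe set 6 were tested, 4 rose, none fell and the median was 2.55 (dim-raised 2.26). Over all probe sets tested, 18.0% were higher. XTH21 had signals of 545 and 515 on the zone 3 arrays, against 20.6 and 6.11 on the zone 1 arrays (log2 difference 5.56, SE 0.66, adjusted p = 0.0003, dim-raised 4.13). XTH18 and XTH16 had log2 differences of 3.69 and 3.15 (SE 0.48 and 0.42), and XTH19 1.36. EXGT-A3 overlapped between the zones, with 779 and 688 in zone 3, against 489 and 786 in zone 1 (log2 difference 0.24).

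Extensins, the rod-like glycoproteins that peroxidases cross-link in the wall, rose in 3 of 4 tested genes out of 10 with a probe set, with a median of 4.22 (dim-raised 3.24). Over all probe sets tested, 18.0% were higher. AT3G28550 had signals of 311 and 256 on the zone 3 arrays, against 1.52 and 1.01 on the zone 1 arrays (log2 difference 7.83, SE 0.98, dim-raised 3.22). AT1G23720 differed by 5.16 (dim-raised 3.29) and HRGP1 by 3.28. Of 42 polygalacturonases, which cut pectin, with a probe set 18 were tested, 8 rose, 3 fell and the median was 1.30 (dim-raised 0.97). The 3 falls lay near the 20.0% lower over all probe sets tested. AT2G43890 had 359 and 209 in zone 3, against 24.5 and 2.93 in zone 1 (log2 difference 5.01, dim-raised 3.18), and AT3G59850 differed by 4.51 (dim-raised 2.96). AT3G15720 went the other way, with 18.4 and 37.9 in zone 3, against 1265 and 713 in zone 1 (log2 difference -5.17, SE 0.46, adjusted p = 0.0001, dim-raised -4.52), as did AT1G65570 (-3.46, dim-raised -2.87).

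Tubulin genes, whose products form the microtubules of both the spindle and the cell cortex, also held members of both directions. Of 7 tested, 3 rose and 1 fell, beside 18.0% higher and 20.0% lower over all probe sets tested. TUB1 had signals of 3779 and 2296 on the zone 3 arrays, against 101 and 149 on the zone 1 arrays (log2 difference 4.58, SE 0.43, adjusted p = 0.00013). TUB5 and TUB6 rose by 2.02 and 1.54 on the log2 scale, and the TUB5 call was lost without zone 3 replicate 1 (1.79). TUB7 fell, with 360 and 317 in zone 3, against 1517 and 1047 in zone 1 (log2 difference -1.90, SE 0.39). TUB9, TUA6 and TUA1 did not pass, with differences of 0.00, 0.06 and 0.56.

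**Figure D4:**
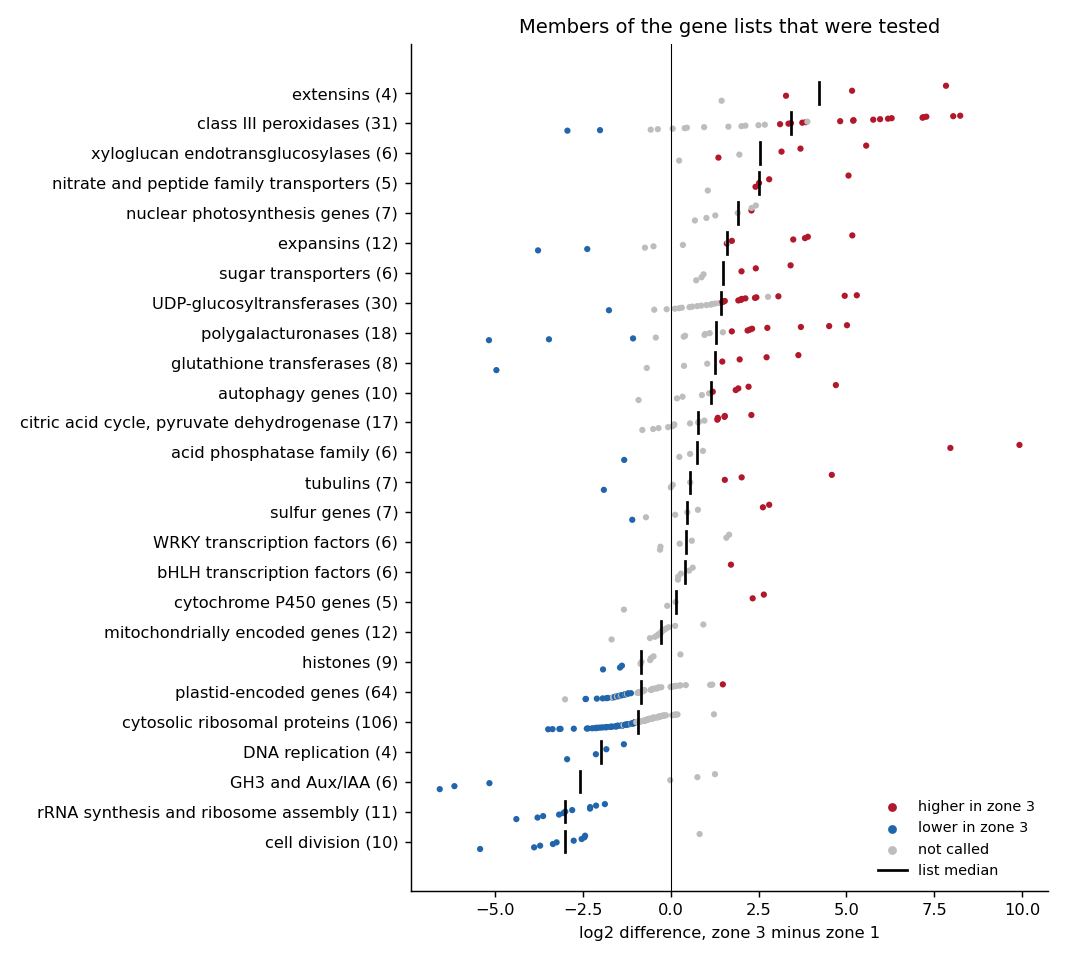
Log2 difference, zone 3 minus zone 1, of each tested member of the 26 gene lists with at least 4 tested members, ordered by list median. Points are genes, coloured by call, black bars are list medians, and the number tested stands in brackets. Lists of division, replication and ribosome assembly lie left of 0, and extensins, peroxidases and xyloglucan endotransglucosylases lie right of it.

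UDP-glucosyltransferases, which attach glucose to hormones, flavonoids and foreign compounds, were higher in zone 3. Of 51 with a probe set, 30 were tested, 13 rose, 1 fell and the median was 1.42 (dim-raised 1.18). Over all probe sets tested, 18.0% were higher. With dim signals raised 15 of the 30 rose. GT72B1, known for conjugating chlorinated pollutants, had signals of 813 and 117 on the zone 3 arrays, against 27.7 and 2.24 on the zone 1 arrays (log2 difference 5.29, SE 1.07, dim-raised 3.35). UGT84A1 differed by 4.95 (dim-raised 1.87), a call lost without zone 3 replicate 1 (4.58), and UGT71C2 by 3.06 (dim-raised 2.04). UGT78D2, of flavonoid glucosylation, had 2392 and 1152 in zone 3, against 270 and 639 in zone 1 (log2 difference 2.00, SE 0.46). UGT76C2, a cytokinin glucosyltransferase, fell, with 44.1 and 50.4 in zone 3, against 153 and 165 in zone 1 (log2 difference -1.75, adjusted p = 0.012). Without zone 3 replicate 1 the median was 1.23 and fewer were called, as over all probe sets tested. With the 60% of probe sets of lowest mean signal left out, 8 rose.

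Glutathione transferases, which couple glutathione to reactive compounds, rose in 4 of 8 tested genes and fell in 1, the ATGSTF13 described above. The 8 were tested out of 14 with a probe set. Over all probe sets tested, 18.0% were higher and 20.0% lower. GSTU28 had signals of 238 and 326 on the zone 3 arrays, against 26.5 and 19.0 on the zone 1 arrays (log2 difference 3.63, SE 0.53, adjusted p = 0.00072, dim-raised 3.20). GSTL3, GSTU27 and GSTU22 had log2 differences of 2.73 (dim-raised 1.66), 1.96 and 1.47. Of 5 cytochrome P450 genes tested, out of 23 with a probe set, CYP84A4 and CYP71B34 rose, by 2.65 (dim-raised 2.50) and 2.33 (dim-raised 1.09) on the log2 scale. The CYP84A4 call was lost without zone 3 replicate 2 (2.34). The CYP71B34 call was lost under 4 of the 18 alternatives, among them those that left out zone 3 replicate 1 (2.36) or zone 3 replicate 2 (2.31).

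Few genes of sulfur uptake and use could be followed. Of 9 with a named probe set 7 were tested, and none of them is a sulfate transporter or an APR gene. GTR1, a transporter of glucosinolates, which are sulfur-rich defence compounds, had signals of 907 and 637 on the zone 3 arrays, against 128 and 92.9 on the zone 1 arrays (log2 difference 2.80, SE 0.37, adjusted p = 0.00048). MGL, the methionine gamma-lyase gene, had 517 and 175 in zone 3, against 37.4 and 63.6 in zone 1 (log2 difference 2.62, SE 0.54, adjusted p = 0.0042). Both rose in zone 3 with no overlap of arrays, as did 2460 of the 2461 probe sets called higher.

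APS3, which encodes an ATP sulfurylase of the sulfate assimilation pathway, was lower in zone 3, with signals of 261 and 178, against 604 and 349 in zone 1 (log2 difference -1.09, SE 0.37, adjusted p = 0.038). This call lay close to the 2-fold limit and was lost under 11 of the 18 alternatives, among them quantile normalization (-0.98), an offset of 32 (-0.99), and leaving out any array but zone 1 replicate 2. The sulfite reductase gene SIR had 1220 and 755 in zone 3, against 1879 and 1299 in zone 1 (log2 difference -0.70, adjusted p = 0.14). APS4 and AT1G04770, listed as the sulfur deficiency gene SDI2, differed by 0.47 and 0.78 without passing. BGLU28, a beta-glucosidase gene, spanned 225 and 57.4 in zone 3, against 34.9 and 309 in zone 1.

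Transporters of sugars and of the nitrate and peptide transporter family were higher in zone 3 where they passed. SWEET16, a tonoplast sugar carrier, had signals of 466 and 198 on the zone 3 arrays, against 34.3 and 23.8 on the zone 1 arrays (log2 difference 3.41, SE 0.47). SWEET17, of the same kind, had 647 and 258 in zone 3, against 114 and 89.8 in zone 1 (log2 difference 2.02, SE 0.43). TMT1, a tonoplast monosaccharide transporter, had 1612 and 1289 in zone 3, against 264 and 274 in zone 1 (log2 difference 2.42, SE 0.34). These 3 were the ones that rose of 6 sugar transporters tested, beside 18.0% higher over all probe sets tested. Of 19 with a probe set, 13 were below the filter, which could keep a member for a single bright zone. Of 12 transporter genes of the nitrate and peptide family with a probe set, 5 were tested and 4 rose. The largest rise was that of AT3G21670, with 155 and 181 in zone 3, against 9.15 and 2.76 in zone 1 (log2 difference 5.06, dim-raised 2.47). GTR1 is counted in this family too.

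Autophagy genes rose in 5 of 10 tested, none fell and the median was 1.14, beside 18.0% higher over all probe sets tested. All 5 encode ATG8, the ubiquitin-like protein that coats forming autophagosomes. ATG8E had signals of 287 and 132 on the zone 3 arrays, against 8.07 and 6.99 on the zone 1 arrays (log2 difference 4.70, SE 0.63, adjusted p = 0.00049, dim-raised 2.69). ATG8H had 585 and 374 in zone 3, against 81.3 and 125 in zone 1 (log2 difference 2.22, SE 0.39), and ATG8F and APG8A had log2 differences of 1.92 and 1.85. ATG8G, ATG8D and ATG8C did not pass, with -0.91, 0.18 and 0.34.

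Genes of the citric acid cycle and pyruvate dehydrogenase rose in 6 of 17 tested, with none lower and a median of 0.78, beside 18.0% higher over all probe sets tested. SDH1-2, a flavoprotein subunit gene of succinate dehydrogenase, had signals of 362 and 181 on the zone 3 arrays, against 51.1 and 53.3 on the zone 1 arrays (log2 difference 2.30, SE 0.43, adjusted p = 0.0025). Its paralogue SDH1-1, brighter in both zones, had 2595 and 2306 in zone 3, against 1436 and 3661 in zone 1 (log2 difference 0.09). The isocitrate dehydrogenase genes IDH-V and IDH-VI and the succinate dehydrogenase gene SDH2-1 had log2 differences of 1.54, 1.34 and 1.53, and the IDH-VI call was lost without zone 3 replicate 1 (1.14).

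Genes of auxin response held large but variable falls. Of 17 with a probe set only 6 passed the filter on low signals. Of these 3 fell and none rose, with a median of -2.58, beside 20.0% lower over all probe sets tested. With dim signals raised 2 fell and 1 rose, with a median of -0.53. The 11 below the filter included IAA29, with signals of 66.0 and 64.5 on the zone 3 arrays, against 3.22 and 3.39 on the zone 1 arrays, and AT1G48690, with 32.7 and 28.7 in zone 3, against 3.04 and 0.40 in zone 1, which were not tested. AT5G51470, a member of the GH3 family, whose enzymes join amino acids to hormone acids, had signals of 1.99 and 3.46 on the zone 3 arrays, against 80.7 and 769 on the zone 1 arrays (log2 difference -6.57, SE 1.22, dim-raised -2.59). AT1G23160, also a GH3 gene, had 1.27 and 14.9 in zone 3, against 129 and 742 in zone 1 (log2 difference -6.15, dim-raised -2.90). IAA33 differed by -5.15 (dim-raised -1.05, not called). The AT5G51470 call was also lost with the lowest 60% of probe sets left out. Without zone 1 replicate 2 all 3 calls were lost, at -4.94, -4.89 and -4.75, none of the list fell and 1 rose.

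In 2 transcription factor families only 6 genes each were tested. Over all probe sets tested, 18.0% were higher and 20.0% lower, so counts this small do not set these families apart. None of 6 WRKY genes passed, and the largest difference was 1.66 for WRKY47 (dim-raised 1.05). With dim signals raised, or without zone 3 replicate 1, 2 of the WRKY genes were higher, and 1 was without zone 1 replicate 1. Of 6 bHLH genes, bHLH115, a regulator of iron uptake, rose, with signals of 162 and 233 on the zone 3 arrays, against 48.1 and 73.0 on the zone 1 arrays (log2 difference 1.71, SE 0.38, adjusted p = 0.006).

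Genes encoded in the plastid genome were more often lower than higher in zone 3. Of 69 with a probe set 64 were tested, 19 fell (29.7%), 1 rose and the median was -0.85 (dim-raised -0.79), beside 20.0% lower and 18.0% higher over all probe sets tested. rps3, a plastid ribosomal protein gene, had signals of 425 and 612 on the zone 3 arrays, against 3797 and 1940 on the zone 1 arrays (log2 difference -2.41, SE 0.39, adjusted p = 0.0012). rpoC1, of the plastid RNA polymerase, and psbK, of photosystem II, had -2.10 and -1.93. psbA, which encodes a reaction centre protein, rose, with 440 and 357 in zone 3, against 239 and 84.1 in zone 1 (log2 difference 1.48, adjusted p = 0.035). Zone 1 replicate 1 was the higher zone 1 array for most of these genes. The number that fell was 9 without zone 1 replicate 1, but 30 when the other zone 1 array was left out. It was 10 without zone 3 replicate 1 and 12 when the other zone 3 array was left out. Over all probe sets, 15.8%, 12.1% and 19.5% were lower without zone 1 replicate 1, zone 3 replicate 1 and zone 3 replicate 2, so these 3 counts lay near the background. The number that rose was 2 without zone 1 replicate 1, and 0 when any of the other 3 arrays was left out. None of the 12 mitochondrially encoded genes tested passed, with a median of -0.26, and 1 was higher without zone 1 replicate 1.

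Nuclear photosynthesis genes, used as a check for green tissue, summed to signals of 754 and 549 on the zone 3 arrays, against 464 and 129 on the zone 1 arrays over 7 tested genes. All 7 differences were above 0, with a median of 1.91 (dim-raised 1.02). The share called higher over all probe sets tested was 18.0%. LHCB4.2 alone was called, with 44.1 and 72.7 in zone 3, against 10.4 and 12.8 in zone 1 (log2 difference 2.30, adjusted p = 0.033), and the dim-raised difference of 0.91 was not. With dim signals raised 2 others were called higher, LHCB4.1 (1.27) and PSBY (1.66). The number called ranged from 0 to 4 when single arrays were left out, with 4 without zone 1 replicate 1. Their part in the other results was not tested. Listed markers of xylem, endodermis, phloem and root cap were not analysed here, because none had a probe set that the annotation names, and the lateral root genes LBD16 and LBD29 were below the filter.

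Among the called probe sets, zones 2 and 4 mostly lay between zone 1 and zone 3. These probe sets were picked for a difference between zones 3 and 1, which makes a place between them likely beforehand. The share over all probe sets tested was not computed. Among the 2461 probe sets higher in zone 3, the zone 2 mean fell between the zone 3 and zone 1 means in 91.6% and the zone 4 mean in 76.6%, and zone 4 went beyond zone 3 in 558. Among the 2731 that were lower in zone 3, the shares were 95.9% for zone 2 and 93.4% for zone 4. Over zones 1 to 4, the median log2 level of cell division genes relative to zone 1 was 0, -1.59, -3.00 and -1.08, and that of the rRNA synthesis and ribosome assembly genes 0, -1.47, -3.00 and -1.34. The peroxidase median was 0, 1.46, 3.42 and 3.96. These are descriptions, since members were tested in zone 3 against zone 1 alone.

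**Figure D5:**
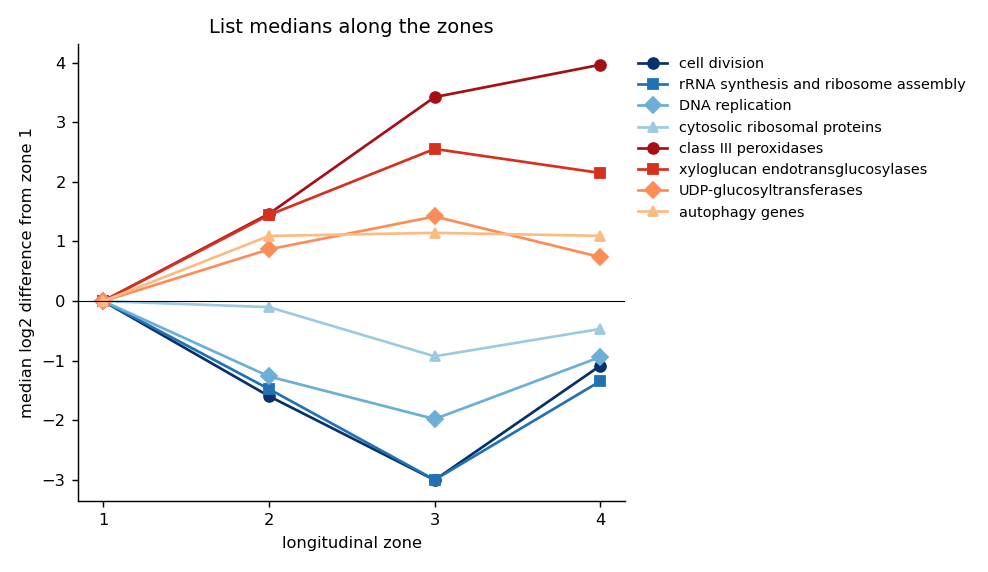
Median log2 difference from zone 1 (vertical axis) in longitudinal zones 1 to 4 (horizontal axis) for 8 gene lists, with each line a list. Division, replication and ribosome lists reach their lowest point in zone 3, and the peroxidase list goes on to 3.96 in zone 4.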

How the data were processed

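Signals of RNA from 8 root sections, 2 in each of 4 zones, were used as the authors deposited them: 1 intensity value per probe set and array on a linear scale, made with MAS5 according to the authors (per the submitters' processing notes), with version and settings not given in the sources used here. Precision is limited by the number of arrays. Of 22810 probe sets, 64 controls were left out. Of the other 22746, 13513 were annotated with 1 gene, 503 with several and 8730 were unnamed here. Names were updated through the TAIR10.1 gene table (13436 matched), and a symbol shared by several loci was replaced by the locus. Family membership of loci without a symbol comes from general knowledge of the families, not from that table. Levels of different probe sets were not compared.

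After log2 without an offset, the 40% of probe sets with the lowest mean over all arrays were dropped (cutoff 42.5). Zone means were fitted to the 8 arrays with limma 3.58.1 under R 4.3.3 (4 residual and 6.5 prior degrees of freedom, eBayes with trend), two-sided, with Benjamini-Hochberg adjustment over 13647 probe sets. Errors are moderated SEs. With 2 arrays against 2, an exact permutation test of one gene cannot go below p = 0.333. Gene lists were described by counts and medians, with no test of a list. The members and lists were chosen with earlier results of these data known. Named genes were the 12 largest dim-raised differences in each direction among called genes with no overlap of arrays, a higher zone mean of at least 75.0, and a call that dim-raised signals kept, plus up to 4 members of each list with the largest differences. Further list members named for contrast, and the neighbours of AT1G52070, were chosen after their values were seen. Replicate numbers did not pair the arrays: correlations of same-numbered deviations ran from -0.192 to 0.037 over the 6 zone pairs. On simulated arrays with 200 of 13647 probe sets changed, the fit recovered, of 50 each, 10% with a log2 change of 1.5, 44% with 2, 70% with 3 and 82% with 4, and it called 4 of the unchanged probe sets. The simulation changed far fewer probe sets than the 38.0% called in the data, and the adjustment depends on that share. These recoveries therefore do not describe the fit to the data. Planned shares of promoter motifs were not computed. Tables and plots used Python 3.11.15, pandas 2.3.3, numpy 2.4.6 and matplotlib 3.10.9.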

Additional observations from a re-analysis of the deposited data

How the results depend on the processing

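Across the alternatives the number of probe sets called ranged from 3112 to 5425, and no call turned to the opposite direction in any of 18 alternatives that changed the fit. Leaving out single arrays gave 3112 to 4906 calls, 1464 to 2329 of them higher and 1648 to 2656 lower in zone 3. The lowest of these, 3112 with 1464 higher and 1648 lower, came without zone 3 replicate 1, which kept 57.9% of the calls. The replicate block gave 5015 calls. Leaving out the lowest 60% of probe sets, and fitting the 4 arrays of zones 3 and 1 alone, gave 3952 each. Of the calls 47.4% were higher in zone 3, and this share ran from 41.5% with each array centred on its median to 50.9% without zone 1 replicate 1. Over all probe sets the log2 difference had a median of -0.01, -0.13 with that centring and 0.25 with no filter. Of 119 genes followed singly, 94 were called. Of these, 70 kept the call under all 18 alternatives, and 6 kept it where they were tested but were left out by the filter at the 60th percentile, which tested 80 of the 94. Differences of 4 genes that were not called changed sign: with single arrays left out, PSAE-1 ran from -0.48 (without zone 1 replicate 2) to 5.32, AT3G53650 from -2.18 to 0.47 (without zone 1 replicate 1), WRKY6 from -0.20 (without zone 3 replicate 2) to 1.40, and CYP51G2 from -0.42 (without zone 1 replicate 2) to 0.70, with -0.12 without zone 3 replicate 2 and -0.067 under quantile normalization. The cause was not tested. Signals near the dim end limit the size of differences, which shrank with dim signals raised.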

Other observations

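Among 2305 pairs of neighbouring genes that were both tested, both members were called in 328, and in 188 of these (57.3%) they shared a direction. There were 11 runs of 3 neighbouring genes called in one direction. Of all 7497 named genes, 1303 were higher and 1550 were lower. With so many genes called, such pairs and runs can arise in any order of genes, and an excess was not tested. The higher ones included AT2G40600, EXPA8 and AT2G40620 on chromosome 2, and TBL21, TBL19 and AT5G15910 on chromosome 5. The lower ones included rpl16, rps3 and rpl22 of the plastid genome, and HAT3.1, AT3G19515 and AT3G19520 on chromosome 3. On the 5 nuclear chromosomes, 16.2% to 19.1% of tested genes were higher in zone 3 and 18.8% to 21.8% were lower.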
